A study of Mus musculus with 47 samples.

Results

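The integrated stress response genes Atf4, Atf5, Ddit3, Trib3, Asns, Chac1, Psat1 and Phgdh, with the mTORC1 inhibitor genes Ddit4 and Ddit4l, were followed in mouse striatum across 6 genotypes. The 10 genes were chosen by name, as members of the ATF4 pathway together with the pair of Ddit4 paralogs, with earlier results of these data known. They are 10 of the 48795 genes in the deposited table. All 10 passed the filter on low counts, which left 19193 genes for testing. Libraries were prepared from total striatal RNA with a strand-specific TruSeq kit and are labelled mRNA.

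All animals were 6 months old and on a C57BL background. Q140 mice carried 1 knock-in allele of huntingtin with an expanded CAG repeat, labelled as heterozygous, and intact Ccdc82 (n = 8), and were set against wild type mice (n = 8). Q140 Ccdc82+/- mice carried the same knock-in allele and 1 mutant copy of Ccdc82 (n = 8), and were set against Ccdc82+/- mice without the knock-in (n = 8). Q140 Ccdc82-/- mice carried the knock-in allele with both copies of Ccdc82 mutant (n = 7), and were set against Ccdc82-/- mice without it (n = 8). Each group held 4 females and 4 males, except Q140 Ccdc82-/- with 3 females and 4 males. The labels name no Cre, transgene or cell-type promoter, and how the Ccdc82 allele was made is not given in the sources used here. The design text counts group sizes in mice, and p-values measure the spread between these libraries.

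In the integrated stress response, kinases that sense unfolded protein, amino acid shortage, heme shortage or viral RNA phosphorylate the translation factor eIF2. Bulk protein synthesis then slows while Atf4 mRNA is translated more, through short reading frames ahead of its coding sequence, and the ATF4 protein switches on genes for amino acid supply, tRNA charging and redox balance. Atf5 and Ddit3 mRNAs are under similar translational control, so their mRNA levels need not follow their proteins. Ddit4 (REDD1) and Ddit4l (REDD2) restrain mTORC1, the growth kinase complex, through the TSC complex, and Ddit4 is a classic target of hypoxia, glucocorticoids and ATF4.

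Library totals ran from 41.3 M to 61.7 M counts (M, mega), with a median of 47.7 M. Ccdc82 itself averaged 8.61 ± 0.928 CPM (counts per M counts of the library, after TMM scaling) in Q140 Ccdc82+/- and 11.6 ± 0.95 CPM in Q140 striata (SD, n = 8 each). It averaged 4.56 ± 0.652 CPM in Q140 Ccdc82-/- (SD, n = 7), so part of its reads remained. Without the knock-in it averaged 8.42 ± 0.519 CPM in Ccdc82+/-, 4.57 ± 0.666 CPM in Ccdc82-/- and 12.01 ± 0.773 CPM in wild type striata (SD, n = 8 each). The 24 medium spiny neuron markers were all detected in every group. Ccdc82-/- male 1 stood apart with summed choroid plexus markers of 346.8 CPM, followed by wild type male 1 with 72.2 CPM, against at most 56.0 CPM in the other libraries. Q140 and wild type libraries were spread unevenly over the 6 columns of the plate, with 0 Q140 and 4 wild type libraries in column 4.

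The 10 genes spanned a wide range of levels. By mean FPKM over all 47 libraries, which is per length of gene, Atf4 was highest at 35.0 FPKM, above 92.9% of tested genes. Asns followed at 26.8 FPKM, Psat1 at 26.2 FPKM and Ddit4 at 21.8 FPKM. Atf5 lay at 10.2 FPKM, Phgdh at 9.99 FPKM and Ddit3 at 9.72 FPKM. Ddit4l lay at 8.44 FPKM over all libraries and at 12.4 FPKM in wild type. Chac1 at 1.79 FPKM and Trib3 at 0.716 FPKM were the least abundant, and Trib3 rested on only 20 to 141 counts per library.

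**Figure D1:**
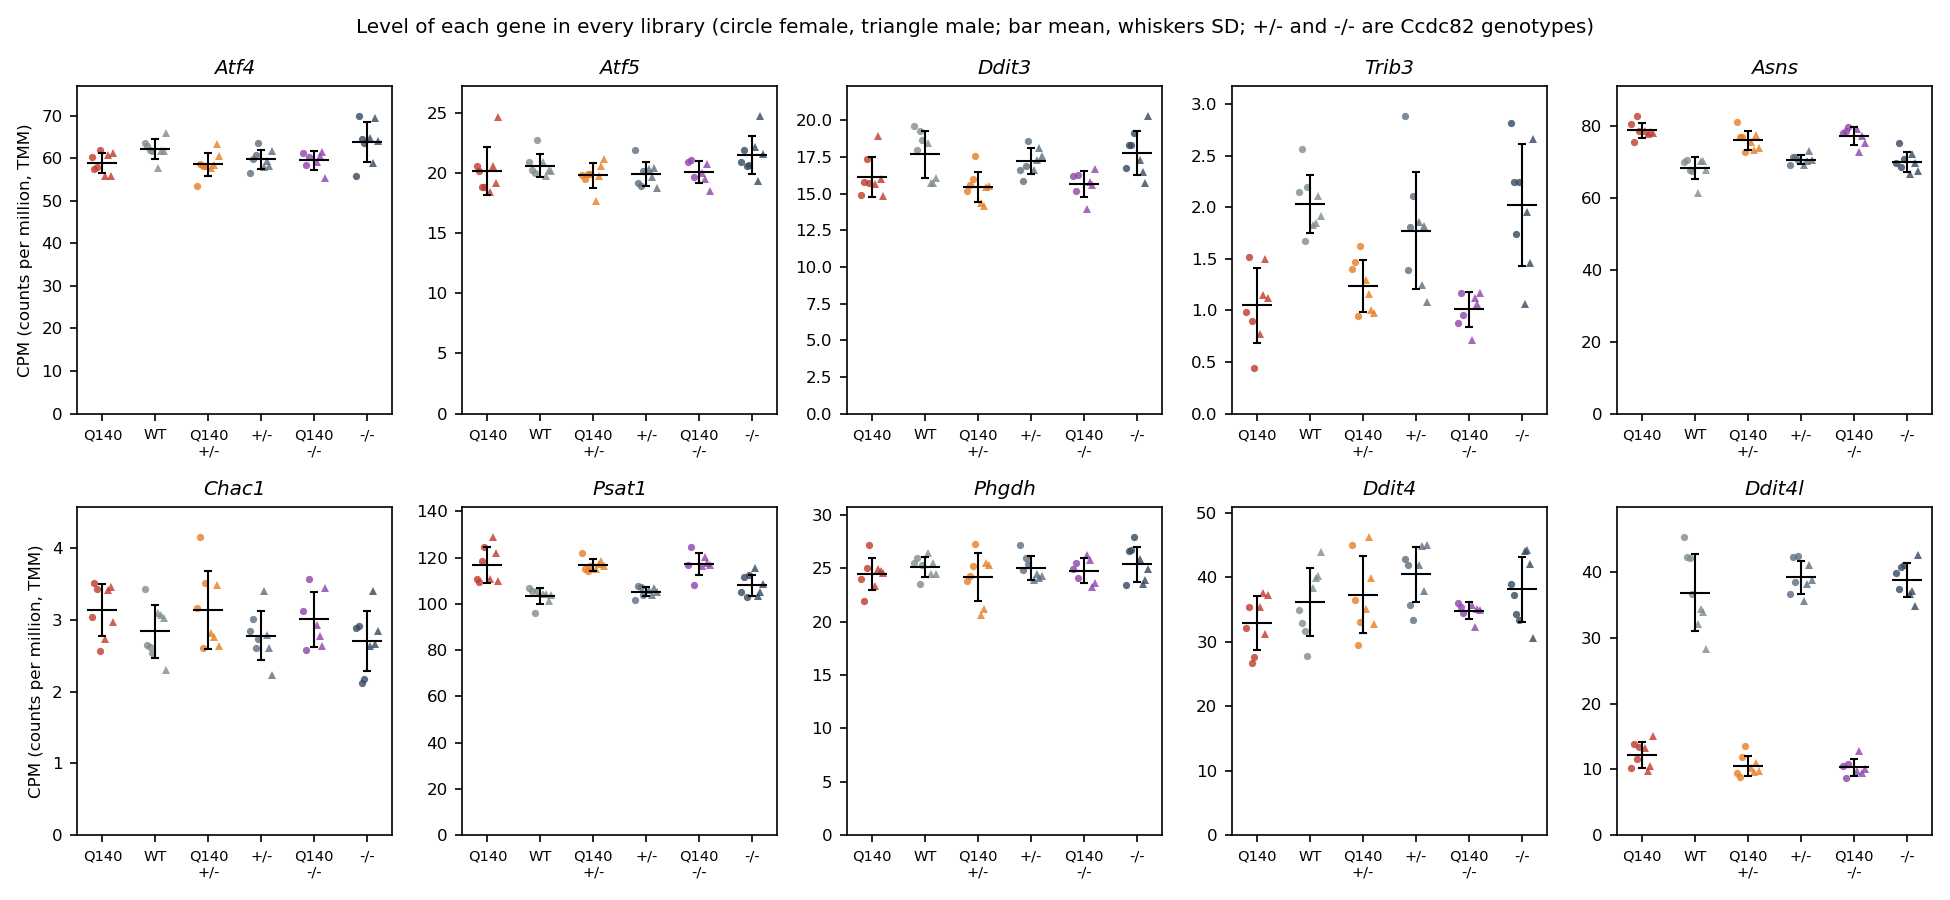
Normalised counts of the 10 genes in each of the 47 libraries, in CPM, 1 panel a gene, with each Q140 group left of its own control; circles are females, triangles are males, and bars give the mean and SD. Ddit4l shows no Q140 library above 15.0 CPM and no library without the knock-in below 28.2 CPM.

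Q140 changed the set in both directions (the forest plot of Q140 effects). On the wild type background Asns and Psat1 rose, and Ddit4l, Trib3 and Ddit3 fell. The count of 5 of 10 stands beside 34.7% of all 19193 genes called in that comparison, at a Benjamini-Hochberg adjusted p under 0.05 in edgeR's quasi-likelihood test. On the Ccdc82+/- background the same 5 genes were called in the same directions, where 35.0% of all genes were called. On the Ccdc82-/- background these 5 and Atf4 were called, where 33.2% of all genes were called. The median log2 fold change of the 10 genes was -0.06, -0.04 and -0.10 on the wild type, Ccdc82+/- and Ccdc82-/- backgrounds, beside 0.00, 0.01 and 0.01 over all tested genes. These 3 comparisons share no library.

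The split of calls over all genes differed between the main fit and a fit of the deposited FPKM. The 2 fits differ in scaling, in the test and in the filter, with 19193 and 21309 genes tested. With trimmed-mean (TMM) scaling, 3485 of 6655 called genes were higher in Q140 than in wild type, 3524 of 6726 on the Ccdc82+/- background and 3360 of 6367 on the Ccdc82-/- background. With the deposited FPKM, scaled by total counts and tested in limma, 5900 of 8021, 6501 of 8415 and 6143 of 7961 called genes were higher on the same 3 backgrounds. The median log2 fold change of all genes under FPKM was 0.05, 0.08 and 0.07, so small changes of the members differ between the 2 fits.

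**Figure D2:**
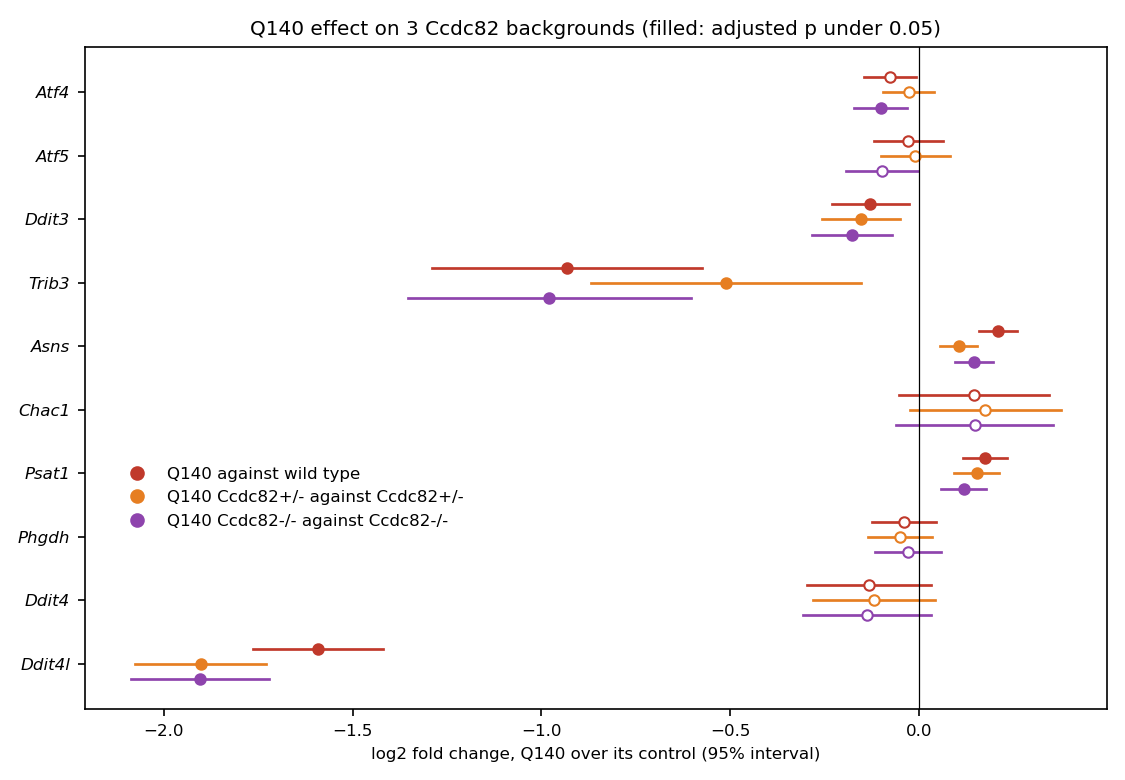
Log2 fold change of each of the 10 genes in Q140 over its own control, with the 95% interval, on the wild type, Ccdc82+/- and Ccdc82-/- backgrounds; filled points have an adjusted p under 0.05. Ddit4l lies at -1.59, -1.90 and -1.90, Trib3 at -0.93, -0.51 and -0.98, and the other 8 genes within 0.25 of 0.

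The transcription factors at the head of the pathway moved little at the mRNA level. Atf4 (ENSMUSG00000042406, chr15:80255184-80257541 on GRCm38, plus strand), the factor that drives the programme, ranged from 55.9 to 61.9 CPM (median 59.1) in Q140 and from 57.7 to 65.8 CPM (median 61.9) in wild type. The groups overlapped and the log2 fold change was -0.08 ± 0.03 (SE; adjusted p = 0.0766). On the Ccdc82+/- background the Atf4 log2 fold change was -0.03 ± 0.03 (adjusted p = 0.571). On the Ccdc82-/- background Atf4 ranged from 55.4 to 61.4 CPM (median 60.3) in Q140 Ccdc82-/- and from 55.8 to 69.9 CPM (median 64.3) in Ccdc82-/-, and it fell by 0.10 ± 0.04 on the log2 scale (adjusted p = 0.0209, edgeR). That small fall was not past the threshold with the plate column in the fit (adjusted p = 0.0714), under FPKM (log2 fold change -0.03, adjusted p = 0.524), in females alone (adjusted p = 0.334), in males alone (adjusted p = 0.0769) or in a fit of only the 2 groups (adjusted p = 0.075). It was also lost without Ccdc82-/- female 2, Ccdc82-/- male 3 or Q140 Ccdc82-/- male 4 (adjusted p 0.067, 0.0673 and 0.0659). On the wild type background Atf4 passed without wild type male 1 (-0.09, adjusted p = 0.0358).

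Atf5 (ENSMUSG00000038539, chr7:44812256-44816658, minus strand), a related factor also known from the mitochondrial stress response, ranged from 17.7 to 24.8 CPM over all 47 libraries. Its log2 fold changes were -0.03 ± 0.05, -0.01 ± 0.05 and -0.10 ± 0.05 on the wild type, Ccdc82+/- and Ccdc82-/- backgrounds, and none passed the threshold (adjusted p 0.669, 0.895 and 0.108). The last of these passed without Ccdc82-/- male 2 (-0.12, adjusted p = 0.0469). On the wild type and Ccdc82+/- backgrounds the sign of the Atf5 change turned positive under FPKM. Atf5 overlaps Nup62 and Il4i1 on the opposite strand, with mean levels of 24.3 and 0.535 CPM.

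Ddit3 (ENSMUSG00000025408, chr10:127290774-127296288, plus strand), which encodes CHOP, a factor tied to cell death in prolonged stress, was slightly lower in Q140 on each background. It ranged from 14.8 to 18.9 CPM (median 15.8) in Q140 and from 15.7 to 19.6 CPM (median 18.2) in wild type. It ranged from 14.2 to 17.6 CPM (median 15.5) in Q140 Ccdc82+/- and from 15.9 to 18.6 CPM (median 17.1) in Ccdc82+/-, and from 13.95 to 16.7 CPM (median 15.8) in Q140 Ccdc82-/- and from 15.7 to 20.3 CPM (median 17.8) in Ccdc82-/-. Each pair of groups overlapped. Ddit3 fell by 0.13 ± 0.05, 0.15 ± 0.05 and 0.18 ± 0.05 on the log2 scale (adjusted p 0.0431, 0.0145 and 0.00673). The first call was lost without any 1 of 11 of the 16 libraries (adjusted p up to 0.106), in males alone (log2 fold change -0.01, adjusted p = 0.928), with no filter on low counts (adjusted p = 0.0688) and in a fit of only the 2 groups (adjusted p = 0.0838). Those 11 were Q140 females 1, 2 and 4, Q140 males 1, 3 and 4, wild type females 1, 2, 3 and 4, and wild type male 1. Under FPKM the Ddit3 change was -0.07, -0.08 and -0.11 on the 3 backgrounds and passed on none (adjusted p 0.266, 0.188 and 0.0881). In females alone the Ccdc82+/- call was lost (-0.08, adjusted p = 0.414), and in males alone the Ccdc82-/- call (-0.17, adjusted p = 0.123). Ddit3 overlaps Mars and Gm4189 on the opposite strand, and the strand option of the counting is not given, so its counts carry some uncertainty. A second Ddit3 entry annotated on its own strand had no row of counts.

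Among the effectors, the Trib3, Asns and Chac1 start regions held the composite ATF4 and C/EBP element, searched as TGATGNAA on both strands. The stretches are shown because these 3 genes are the 3 of the 10 with a match, in 3 of their 12 RefSeq windows on GRCm38.p6, which run from 250 bases before to 50 after each start. The 8 capital letters mark the match, with 11 bases on either side, printed along the strand of the gene.
Trib3: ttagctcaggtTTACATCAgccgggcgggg
Chac1: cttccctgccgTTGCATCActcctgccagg
Asns: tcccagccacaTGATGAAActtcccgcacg
The Trib3 stretch is chr2:152344028-152344057 on the minus strand, with the match beginning at position 14 after the RefSeq start. The Chac1 stretch is chr2:119351038-119351067 on the plus strand, with the match beginning at position -193, and the Asns stretch is chr6:7693214-7693243 on the minus strand, beginning at position -23. Of all 32851 windows of the same length, 3.97% held TGATGNAA. The hypoxia element core ACGTG, on either strand, was in 4 of the 12 windows (Asns, Ddit3, Ddit4 and Psat1) and in 19.6% of all windows. The cyclic AMP element TGACGTCA was in 0 of the 12 windows and 1.79% of all windows, and the endoplasmic reticulum stress element (ERSE) in 0 and 0.119%. The windows of Psat1 (chr19:15925010-15925309 and chr19:15924573-15924872) and Ddit4l (chr3:137623422-137623721) lie inside the gene bounds given below. They do not cover the gene starts of those bounds, 15947337 for Psat1 and 137621612 for Ddit4l. These matches describe letters in the windows, and occupancy was not measured.

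Trib3 (ENSMUSG00000032715, chr2:152337422-152344032, minus strand), a pseudokinase that is induced by ATF4 and CHOP and in turn restrains them, had the largest relative fall among the classical ATF4 targets of the set. It ranged from 0.443 to 1.52 CPM (median 1.05) in Q140 and from 1.67 to 2.56 CPM (median 2.01) in wild type. Every Q140 library lay below every wild type library. The level was 52.4% of wild type, a fall of 0.93 ± 0.18 on the log2 scale (adjusted p = 3.47e-05).

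In Q140 Ccdc82+/- Trib3 ranged from 0.948 to 1.62 CPM (median 1.23), and in Ccdc82+/- from 1.08 to 2.89 CPM (median 1.81). The groups overlapped, and the level was 70.2% of that in Ccdc82+/- (log2 fold change -0.51 ± 0.18, adjusted p = 0.0199). This call was lost with the plate column in the fit (-0.38, adjusted p = 0.13), in females alone (-0.58, adjusted p = 0.121), in males alone (-0.42, adjusted p = 0.2), under log2(FPKM + 0.1) (-0.37, adjusted p = 0.07) and without Ccdc82+/- female 1 (-0.39, adjusted p = 0.0814). In Q140 Ccdc82-/- Trib3 ranged from 0.713 to 1.17 CPM (median 1.06), and in Ccdc82-/- from 1.06 to 2.82 CPM (median 2.10). The overlap came from Ccdc82-/- male 1, the library with the most choroid plexus RNA, and Trib3 fell by 0.98 ± 0.19 on the log2 scale (adjusted p = 3.68e-05). Without that library and wild type male 1 the change was -1.07 (adjusted p = 7.5e-06).

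Chac1 (ENSMUSG00000027313, chr2:119351229-119354381, plus strand), which breaks down glutathione, did not pass in any Q140 comparison. It ranged from 2.57 to 3.51 CPM (median 3.22) in Q140 and from 2.30 to 3.43 CPM (median 2.84) in wild type. Its log2 fold changes were 0.14 ± 0.10, 0.17 ± 0.10 and 0.15 ± 0.10 on the wild type, Ccdc82+/- and Ccdc82-/- backgrounds (adjusted p 0.274, 0.178 and 0.296). With 89 to 201 counts per library, the 95% interval on the wild type background ran from -0.05 to 0.34. Under log2(FPKM + 0.1) the change on the Ccdc82+/- background passed (0.23, adjusted p = 0.0454), as it did under log2(FPKM + 1) (0.15, adjusted p = 0.0431).

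Asns (ENSMUSG00000029752, chr6:7675169-7693254, minus strand), the asparagine synthetase and a textbook ATF4 target, rose on all 3 backgrounds, opposite in direction to Trib3. It ranged from 75.4 to 82.8 CPM (median 78.4) in Q140 and from 61.3 to 70.5 CPM (median 68.8) in wild type, with no overlap. The level was 115.5% of wild type (log2 fold change 0.21 ± 0.02, adjusted p = 1.40e-09).

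On the Ccdc82+/- background Asns ranged from 72.7 to 80.9 CPM (median 76.1) in Q140 Ccdc82+/- and from 69.1 to 73.1 CPM (median 70.4) in Ccdc82+/-. On the Ccdc82-/- background it ranged from 72.8 to 79.8 CPM (median 78.0) in Q140 Ccdc82-/- and from 66.6 to 75.1 CPM (median 69.7) in Ccdc82-/-. Both pairs overlapped at their edges, and Asns rose by 0.10 ± 0.02 (adjusted p = 0.000580) and 0.14 ± 0.03 (adjusted p = 9.06e-06) on the log2 scale. In males alone the Ccdc82+/- call was lost (0.08, adjusted p = 0.107).

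Psat1 (ENSMUSG00000024640, chr19:15904678-15947337, minus strand), an aminotransferase of the serine synthesis pathway, also rose. It ranged from 109.4 to 128.8 CPM (median 114.7) in Q140 and from 96.2 to 106.9 CPM (median 104.4) in wild type, with no overlap, and rose by 0.17 ± 0.03 on the log2 scale (adjusted p = 3.34e-06). It ranged from 114.3 to 122.2 CPM (median 116.5) in Q140 Ccdc82+/- and from 101.7 to 107.6 CPM (median 105.7) in Ccdc82+/-, again with no overlap, and rose by 0.15 ± 0.03 (adjusted p = 3.49e-05). On the Ccdc82-/- background it ranged from 108.2 to 124.4 CPM (median 117.0) in Q140 Ccdc82-/- and from 103.1 to 115.6 CPM (median 106.8) in Ccdc82-/-, with overlap, and rose by 0.12 ± 0.03 (adjusted p = 0.00172). That last call was lost in females alone (0.11, adjusted p = 0.137).

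Phgdh (ENSMUSG00000053398, chr3:98313170-98339990, minus strand), the first enzyme of the same serine pathway, was not past the threshold. It ranged from 20.6 to 27.9 CPM over all 47 libraries, and its log2 fold changes were -0.04 ± 0.04, -0.05 ± 0.04 and -0.03 ± 0.04 (adjusted p 0.493, 0.376 and 0.667). Their 95% intervals ran from -0.12 to 0.04, from -0.14 to 0.03 and from -0.12 to 0.06. With the plate column in the fit, Phgdh was lower in Q140 than in wild type by a margin just past the threshold (-0.11, adjusted p = 0.049), and under FPKM its sign turned positive on all 3 backgrounds.

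Ddit4l (ENSMUSG00000046818, chr3:137621612-137628333, plus strand) was the most changed of the 10 genes on every background. It ranged from 9.74 to 15.0 CPM (median 12.4) in Q140 and from 28.2 to 45.3 CPM (median 35.5) in wild type. It ranged from 8.76 to 13.5 CPM (median 9.97) in Q140 Ccdc82+/- and from 35.6 to 42.4 CPM (median 38.7) in Ccdc82+/-. It ranged from 8.73 to 12.7 CPM (median 10.04) in Q140 Ccdc82-/- and from 34.8 to 42.6 CPM (median 38.6) in Ccdc82-/-. No Q140 library overlapped any library without the knock-in.

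The Ddit4l level was 33.2%, 26.8% and 26.7% of the control level on the wild type, Ccdc82+/- and Ccdc82-/- backgrounds. The falls were 1.59 ± 0.08, 1.90 ± 0.09 and 1.90 ± 0.09 on the log2 scale (adjusted p = 3.63e-19, 1.08e-21 and 7.07e-21, edgeR). Ddit4l kept its direction and its call under every alternative run.

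Markers of the main striatal neuron moved with Ddit4l. Of 24 medium spiny neuron markers, 22 fell and 1 (Tac1, the substance P precursor, 0.17 ± 0.04 on the wild type background) rose in each Q140 comparison, with median log2 fold changes of -0.56, -0.61 and -0.59. Their summed level ranged from 15590 to 18930 CPM in Q140 and from 24610 to 27630 CPM in wild type, and none was at 0. In bulk tissue, fewer cells of a type and less RNA per cell cannot be told apart.

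Markers of other cells also gave calls, in counts that differed between the fits. Beside these and the medium spiny neuron counts, 34.7%, 35.0% and 33.2% of all genes were called on the 3 backgrounds in the main fit. On the wild type background the microglial and oligodendrocyte counts, 5 of 14 each, stand near that share. Of 14 microglial markers 5, 13 and 11 were lower in Q140 on the wild type, Ccdc82+/- and Ccdc82-/- backgrounds and 0 higher, and under FPKM 1, 5 and 8 were lower and 0 higher. Of 16 endothelial and mural markers 8, 11 and 9 were lower and 0 higher, and under FPKM 3, 3 and 5 were lower. With the plate column in the fit 9, 5 and 7 endothelial and mural markers were lower. Of 16 astrocyte markers 7, 5 and 7 were lower and 1, 1 and 0 higher, and under FPKM 5, 4 and 5 were lower and 1, 2 and 1 higher. Of 14 oligodendrocyte markers 5, 3 and 8 were lower and 0 higher, while under FPKM 2, 0 and 5 were lower and 0, 3 and 0 higher, and with the plate column 5, 1 and 8 were lower. Of 10 choroid plexus markers 1 was higher on each background and 0, 0 and 5 were lower. On the Ccdc82-/- background, whose control group holds Ccdc82-/- male 1, their median log2 fold change was -0.94, and with the plate column in the fit 8 were lower, while under FPKM 0 of 8 tested were lower. Of 12 cortical neuron markers 3 were higher on each background and 4, 1 and 2 lower, and 0 of 7 ependymal and 0 of 5 blood markers passed on any. The part of these shifts in the changes of the 10 genes was not tested.

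Ddit4 (ENSMUSG00000020108, chr10:59949669-59951834, minus strand), the better known paralog, gave no such fall. It ranged from 26.7 to 37.6 CPM (median 33.8) in Q140 and from 27.8 to 43.9 CPM (median 36.7) in wild type. It ranged from 29.6 to 46.2 CPM (median 35.8) in Q140 Ccdc82+/- and from 33.4 to 45.1 CPM (median 41.9) in Ccdc82+/-. It ranged from 32.3 to 36.0 CPM (median 35.2) in Q140 Ccdc82-/- and from 30.7 to 44.3 CPM (median 38.1) in Ccdc82-/-. All 3 pairs overlapped widely.

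The Ddit4 log2 fold changes were -0.13 ± 0.08, -0.12 ± 0.08 and -0.14 ± 0.08, below 0 on each background and past the threshold on none (adjusted p 0.213, 0.269 and 0.220). Their 95% intervals ran from -0.30 to 0.03, from -0.28 to 0.04 and from -0.31 to 0.03, so a fall of the size seen in Ddit4l lies outside them. With the plate column in the fit the first value was 0.0006 (adjusted p = 0.997).

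The second question of the design, whether loss of Ccdc82 alters these genes with or without the knock-in, gave no member past the threshold. In each of the 4 comparisons of Ccdc82 mutants 1 gene of 19193 was called, 0.00521%, and that gene was Ccdc82 itself, which none of the 10 is. At an unadjusted p under 0.05 there were 1101 genes in Q140 Ccdc82+/- against Q140, 712 in Q140 Ccdc82-/- against Q140, 628 in Ccdc82+/- against wild type and 804 in Ccdc82-/- against wild type. Ddit4l averaged 10.5 ± 1.56 CPM in Q140 Ccdc82+/- and 10.3 ± 1.27 CPM in Q140 Ccdc82-/-, against 12.2 ± 1.96 CPM in Q140 striata (SD, n = 8, 7 and 8). The log2 fold changes were -0.22 ± 0.09 (adjusted p = 0.859) and -0.23 ± 0.09 (adjusted p = 0.9997). Both comparisons share the Q140 libraries. Members at an unadjusted p under 0.05 were Asns, Ddit4 and Ddit4l in Q140 Ccdc82+/- against Q140, Ddit4l in Q140 Ccdc82-/- against Q140, Asns and Ddit4 in Ccdc82+/- against wild type and Psat1 in Ccdc82-/- against wild type, and DESeq2 called 0 members in each of the 4.

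Ddit4 had a higher mean with 1 mutant copy of Ccdc82, though it did not pass the threshold. It averaged 37.3 ± 5.98 CPM in Q140 Ccdc82+/- and 32.9 ± 4.18 CPM in Q140 (log2 fold change 0.18 ± 0.08, adjusted p = 0.859). It averaged 40.5 ± 4.30 CPM in Ccdc82+/- and 36.2 ± 5.30 CPM in wild type (0.17 ± 0.08, adjusted p = 0.998). With both copies mutant the log2 fold changes were 0.07 ± 0.08 in Q140 Ccdc82-/- over Q140 and 0.08 ± 0.08 in Ccdc82-/- over wild type.

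Whether the Q140 effect itself differed with Ccdc82 dose was tested as an interaction, which called 0 genes (0%) for either dose, with 1011 genes at an unadjusted p under 0.05 for Ccdc82+/- and 826 for Ccdc82-/-. With DESeq2 the same interactions called 1 and 0 genes. For Ddit4l the interaction was -0.31 ± 0.12 with Ccdc82+/- (unadjusted p = 0.0131, adjusted p = 0.914) and -0.31 ± 0.12 with Ccdc82-/- (unadjusted p = 0.0145, adjusted p = 0.998), a deeper fall in both that the correction over all genes did not keep. For Asns it was -0.10 ± 0.03 with Ccdc82+/- (unadjusted p = 0.00440, adjusted p = 0.914) and -0.06 ± 0.04 with Ccdc82-/-, and for Trib3 0.42 ± 0.25 and -0.05 ± 0.26. The 2 interactions share the Q140 and wild type libraries, and a value that misses the threshold does not show equal effects.

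By sex, Ddit4 passed the threshold and none of the other 9 genes did. Ddit4 ranged from 26.7 to 45.04 CPM (median 34.4) in 23 females and from 30.7 to 46.2 CPM (median 38.2) in 24 males, and was lower in females by 0.16 ± 0.05 on the log2 scale (adjusted p = 0.0304). That is 1 of 10 members where 8.67% of all genes were called by sex. In wild type the 4 females lay between 27.8 and 34.9 CPM and the 4 males between 38.4 and 43.9 CPM, with no overlap, while in Q140 they lay between 26.7 and 35.4 CPM and between 31.3 and 37.6 CPM. In Q140 Ccdc82-/- the 3 females averaged 35.3 ± 0.829 CPM and the 4 males 34.5 ± 1.56 CPM, the 1 group of 6 in which females were not lower. The test of a different Q140 effect in the 2 sexes gave 0.12 ± 0.09 for Ddit4 (unadjusted p = 0.191, adjusted p = 0.9998) and called 0 of all genes (0%), with 594 at an unadjusted p under 0.05. With no filter on low counts the sex difference of Ddit4 was not past the threshold (-0.16, adjusted p = 0.0535), and it passed without any 1 of the 47 libraries (adjusted p up to 0.0484).

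**Figure D3:**
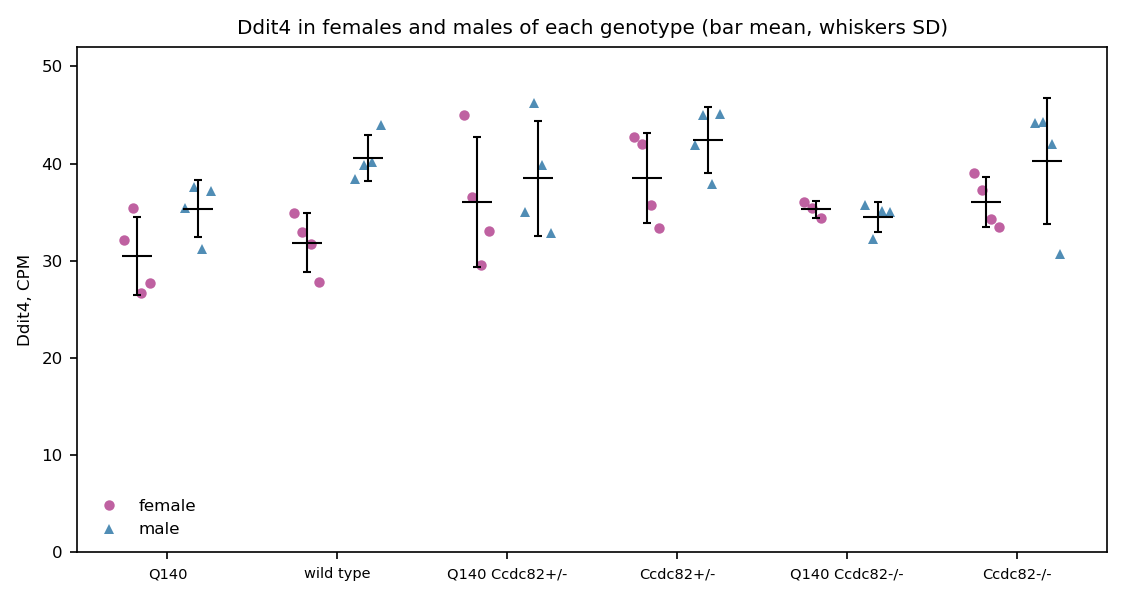
Ddit4 in CPM by group and sex, 1 point a library with the mean and SD, each Q140 group left of its control and females left of males. In wild type the 4 females lie between 27.8 and 34.9 CPM and the 4 males between 38.4 and 43.9 CPM.

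Over all genes, 890 of 1664 sex calls were higher in females with TMM scaling and 551 of 1575 under FPKM. The remaining members gave log2 fold changes, female over male, of 0.10 ± 0.05 for Ddit4l (adjusted p = 0.184), 0.18 ± 0.10 for Trib3 (adjusted p = 0.279), 0.05 ± 0.02 for Phgdh (adjusted p = 0.174) and 0.03 ± 0.01 for Asns (adjusted p = 0.198). The other 5 lay between -0.01 and 0.05. In wild type alone, Ddit4l also separated the sexes, in the direction opposite to Ddit4. It lay between 36.6 and 45.3 CPM in the 4 females and between 28.2 and 34.4 CPM in the 4 males. In each other group the Ddit4l ranges of the sexes overlapped. Phgdh separated the sexes in Ccdc82+/-, between 24.81 and 27.15 CPM in females and between 23.91 and 24.45 CPM in males. The share of all genes whose sexes separate within a group was not counted, so these separations were not set against chance. Of 22 genes of the endoplasmic reticulum unfolded protein response, a list that neighbours the ATF4 branch, 10 were higher in females and 0 lower (median 0.12, beside 0.00 over all genes). Under FPKM 8 were higher and 0 lower, but with the plate column in the fit 3 were higher and 1 lower (median 0.12). Of the 44 ATF4 targets 3 were higher and 0 lower, of 17 eIF2 genes 2 and 0, of 30 mTORC1 genes 1 and 1, of 19 glucocorticoid response genes 1 and 2, and of 19 hypoxia response genes 1 and 0. Beside these lists, 8.67% of all genes were called by sex.

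When the 6 groups were ordered by mean CPM, few neighbours in that order were separated. Over all 150 pairs of groups for the 10 genes, exact two-sided permutation tests of log2 CPM with Benjamini-Hochberg adjustment separated neighbours only for Ddit4l and Asns. For Ddit4l the step was between Q140, the highest of the Q140 groups, and wild type, the lowest of the groups without the knock-in (exact p = 0.000155, adjusted p = 0.00101). For Asns it was between Q140 Ccdc82+/- and Ccdc82+/- (exact p = 0.000311, adjusted p = 0.00187). The nearest step of Psat1, between Q140 and Ccdc82-/-, had an adjusted p of 0.0518, and that of Trib3, between Q140 Ccdc82+/- and Ccdc82+/-, 0.067. These orders describe the same levels as the comparisons above.

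Co-variation of the 10 genes from library to library was measured with group and sex means removed. Of 45 pairs over 47 libraries, 0 passed the Benjamini-Hochberg adjusted permutation p of Pearson's r. The pair with the smallest p was Ddit3 with Ddit4 (r = -0.47, permutation p = 0.0014, adjusted p = 0.063; Spearman's coefficient = -0.51, permutation p = 0.00049, adjusted p = 0.0221). Without the 2 libraries farthest from the median in Ddit3 r was -0.50, and with the plate column also removed from all 47 libraries it was -0.36. Libraries far out in Ddit4 were not left out. The serine pathway pair Psat1 and Phgdh came next (r = 0.43, adjusted permutation p = 0.0819; Spearman's coefficient = 0.42, adjusted p = 0.151). Without the 2 libraries farthest out in Psat1 that r was 0.41, and with the plate column removed 0.47.

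Among 13938 tested genes, which include other members, those most like a member in log2 CPM over the 47 libraries were found by Pearson's r, given as a description. For Ddit4l they were Penk, the enkephalin precursor of striatopallidal neurons (r = 0.99), Bcr (0.98) and Arpp21, a cAMP-regulated phosphoprotein of the striatum (0.98). The libraries fall into Q140 and non-Q140 clusters on these genes, so the pooled r is mainly that gap. Within the 23 Q140 libraries r was 0.81 for Penk, 0.55 for Bcr and 0.71 for Arpp21, and within the 24 libraries without the knock-in it was 0.38, 0.69 and 0.42. Penk fell by 1.03, 1.18 and 1.07 on the log2 scale on the 3 backgrounds.

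**Figure D4:**
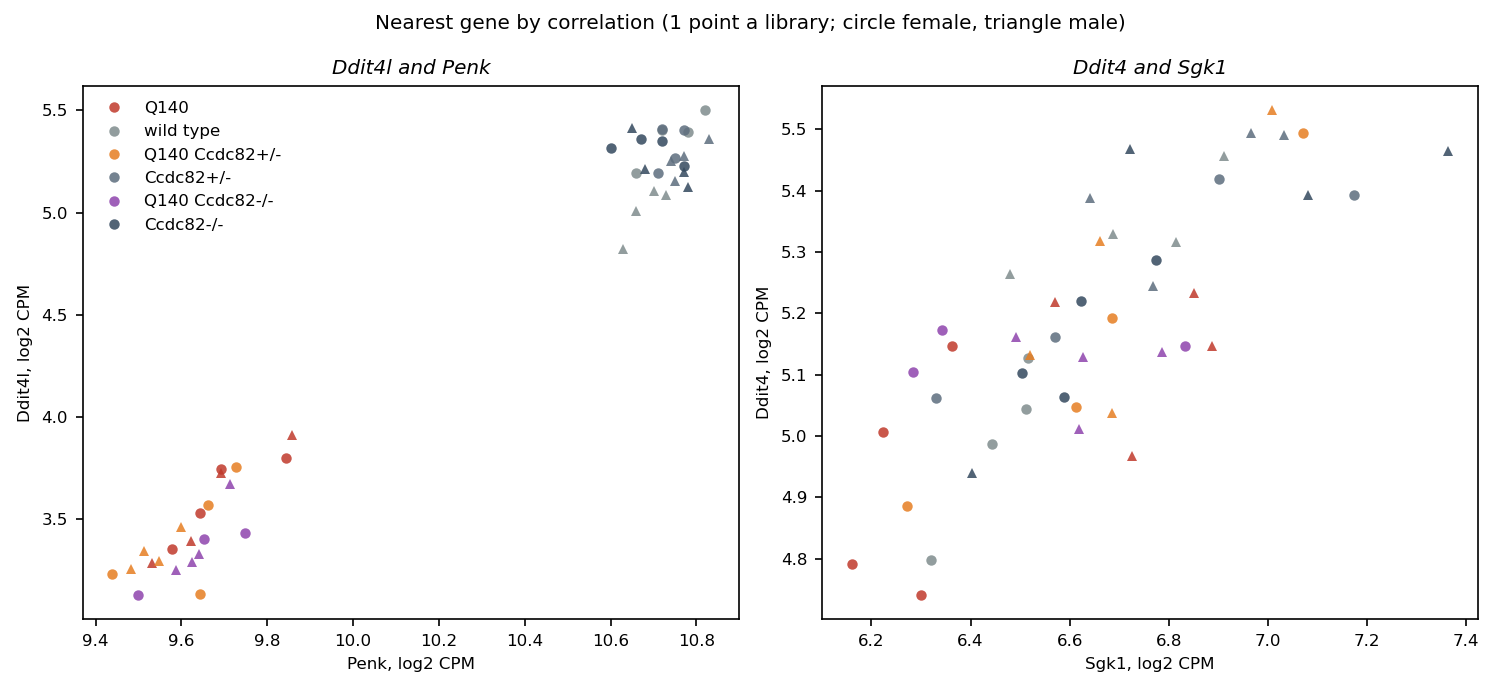
Log2 CPM of Ddit4l against Penk and of Ddit4 against Sgk1, 1 point a library in 47 libraries, coloured by group. Q140 libraries form a separate cluster low in both Ddit4l and Penk, while Ddit4 and Sgk1 run together within the 23 Q140 libraries (r = 0.71) and within the 24 others (r = 0.82).

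For Ddit4 the most similar gene was Sgk1, a kinase gene induced by glucocorticoids (r = 0.78 over all libraries, 0.71 within Q140 and 0.82 without). Sgk1 was highest in Ccdc82-/- male 1, at 164.7 CPM, the library with the most choroid plexus RNA. Next came 2410131K14Rik (0.72; 0.65 within Q140 and 0.71 without) and Gm42748 (0.68; 0.66 and 0.61). For Trib3 they were Plcxd1, Dclk3 and Lingo3 (0.78, 0.78 and 0.78), with 0.42, 0.53 and 0.25 within the Q140 libraries and 0.44, 0.43 and 0.57 without. For Asns they were Prkar1b, a regulatory subunit of protein kinase A (0.90), Maged1 (0.90) and Cxx1c (0.90). Asns also differs by genotype, and r with these genes was 0.63, 0.61 and 0.58 within the Q140 libraries and 0.65, 0.61 and 0.63 without. For Chac1 they were Tmem69 (0.68), Sertad4 (0.65) and Dscaml1 (0.63), with 0.65, 0.56 and 0.59 within the Q140 libraries and 0.57, 0.58 and 0.55 without. The libraries share scaling and depth, which these values include.

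The wider set of ATF4 targets moved in a mixed way in Q140 (the plot of targets by role). Of 47 listed genes outside the 10, 44 were tested, and 13 rose and 5 fell in Q140 against wild type, 12 rose and 2 fell on the Ccdc82+/- background, and 10 rose and 6 fell on the Ccdc82-/- background. The medians were 0.06, 0.03 and 0.02, beside 0.00, 0.01 and 0.01 over all genes. Under FPKM 24, 22 and 20 rose and 5, 2 and 3 fell. At 18, 14 and 16 of 44, the called share stands near the 34.7%, 35.0% and 33.2% of all genes.

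**Figure D5:**
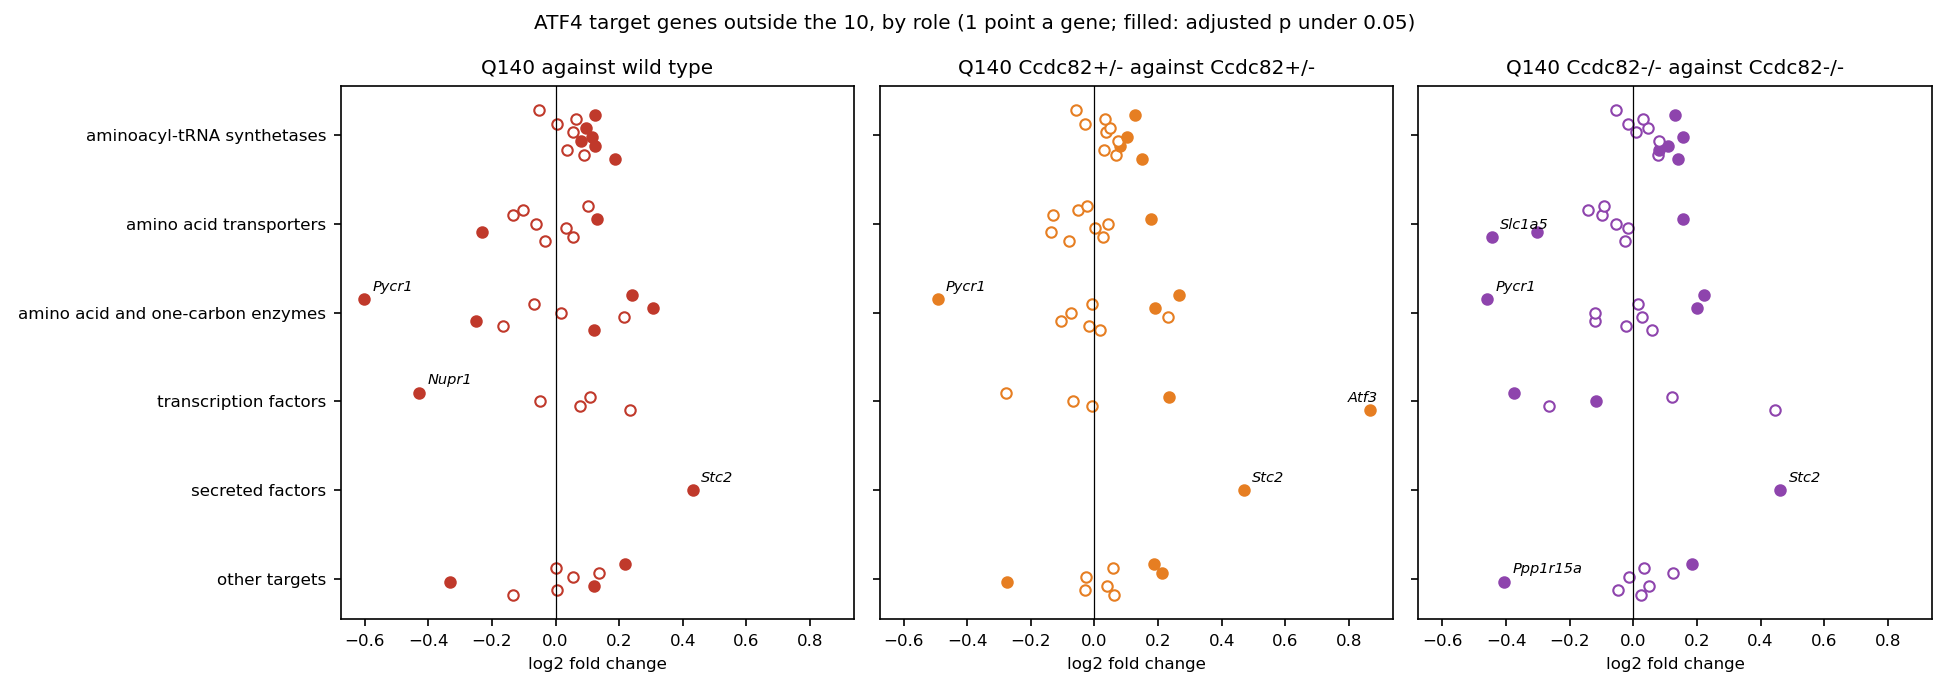
Log2 fold change of each ATF4 target gene outside the 10, 1 point a gene, by role (rows) and Q140 comparison (panels); filled points have an adjusted p under 0.05, and those with a change beyond 0.4 in either direction are named. The filled aminoacyl-tRNA synthetases all lie right of 0, while Pycr1 lies at -0.60, -0.49 and -0.46.

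By role, every call among the aminoacyl-tRNA synthetases, which charge tRNAs, was a rise. Of 12, 6, 4 and 5 rose on the 3 backgrounds and 0 fell. Over all 19193 genes, 3485, 3524 and 3360 were called higher there, and 34.7%, 35.0% and 33.2% were called in either direction. The role was singled out after its values were seen. Aars, the alanyl enzyme, rose by 0.19 ± 0.02, 0.15 ± 0.02 and 0.14 ± 0.02 (adjusted p = 1.48e-09, 2.59e-07 and 2.26e-06), and Wars, Lars and Gars also rose on all 3. Xpot, which exports tRNA from the nucleus, rose by 0.22 ± 0.02, 0.19 ± 0.02 and 0.18 ± 0.02.

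Enzymes of amino acid and one-carbon metabolism split. Shmt2, the mitochondrial serine hydroxymethyltransferase, rose by 0.24 ± 0.04, 0.27 ± 0.04 and 0.22 ± 0.04, and Mthfd2, which acts after it, by 0.31, 0.19 and 0.20. Pycr1, of proline synthesis, fell by 0.60 ± 0.11, 0.49 ± 0.10 and 0.46 ± 0.11 (adjusted p = 8.46e-06, 0.000156 and 0.000685). Of 9 amino acid transporter genes, 1 rose on each background, Slc7a1 for cationic amino acids (0.13, 0.18 and 0.15). Slc38a2 fell on the wild type and Ccdc82-/- backgrounds (-0.23 and -0.30), and Slc1a5 on the Ccdc82-/- background (-0.45).

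Of 5 transcription factor genes, Nupr1 fell in Q140 against wild type (-0.43 ± 0.12), Atf3 (0.87 ± 0.31) and Jdp2 (0.23 ± 0.06) rose on the Ccdc82+/- background, and Nupr1 (-0.37 ± 0.12) and Cebpg (-0.12 ± 0.03) fell on the Ccdc82-/- background. Stc2, a secreted glycoprotein, rose by 0.43 ± 0.11, 0.47 ± 0.11 and 0.46 ± 0.11. The hormones Fgf21 and Gdf15 were too low to be tested.

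The kinases and phosphatase subunits that act on eIF2, with the subunits of eIF2 and of its exchange factor eIF2B and the related regulators Impact, Gcn1l1 and Oma1, also split. Of 17 tested, 6 rose and 2 fell in Q140 against wild type, 4 rose and 2 fell on the Ccdc82+/- background, and 7 rose and 3 fell on the Ccdc82-/- background. These counts stand beside 34.7%, 35.0% and 33.2% of all genes called. The medians were 0.05, 0.05 and 0.03, and under FPKM 11, 13 and 10 rose and 1 fell on each. Ppp1r15a (GADD34), which directs the phosphatase that removes the phosphate and is itself an ATF4 target, fell by 0.33 ± 0.07, 0.27 ± 0.06 and 0.41 ± 0.07 (adjusted p = 5.37e-05, 0.000637 and 3.71e-06). The kinase gene Eif2ak4 (GCN2, the sensor of uncharged tRNA) rose by 0.15, 0.20 and 0.19, and Eif2ak1 (HRI, the heme-regulated kinase) by 0.10, 0.07 and 0.11. Eif2b3, a subunit of the exchange factor eIF2B, rose on the wild type and Ccdc82-/- backgrounds by 0.18 each.

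The other branches of the endoplasmic reticulum response gave few calls. Of 22 genes, 3 rose and 1 fell in Q140 against wild type, 3 rose and 2 fell on the Ccdc82+/- background, and 3 rose and 1 fell on the Ccdc82-/- background (medians 0.04, -0.01 and 0.02). Among all genes 34.7%, 35.0% and 33.2% were called in these comparisons. Under FPKM 5, 6 and 6 rose and 1 fell on each. Atf6, the sensor of one branch, fell by 0.44, 0.46 and 0.44 (adjusted p = 1.98e-19, 2.20e-20 and 7.01e-19). Edem1, a lectin of protein degradation, rose by 0.15, 0.17 and 0.17, and Creb3l2, a related membrane-bound factor, by 0.18, 0.28 and 0.20. Dnajb9, a co-chaperone, rose by 0.08 in Q140 against wild type.

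The mTORC1 pathway, on which Ddit4 and Ddit4l act, was split about evenly, with 8 genes higher and 6 lower of 30 in Q140 against wild type. On the Ccdc82+/- background 9 rose and 6 fell, and on the Ccdc82-/- background 7 rose and 7 fell. In the same comparisons 34.7%, 35.0% and 33.2% of all genes were called. The medians were 0.01, 0.02 and 0.03, and under FPKM 14 rose on each background and 5, 4 and 4 fell. Deptor, another inhibitor of mTOR, fell by 0.56, 0.54 and 0.60. Rasd2 (Rhes), a striatal GTPase that has been tied to mTORC1, fell by 0.38, 0.44 and 0.47, and Rragd, a Rag GTPase, by 0.25, 0.31 and 0.31. Rragb, another Rag GTPase, rose by 0.21, 0.23 and 0.18.

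Of the stimuli known to raise Ddit4, glucocorticoid response genes were mostly lower where they passed, with 1 of 19 higher and 7 lower in Q140 against wild type and 0 higher and 6 lower on each other background. The share of all genes called in either direction was 34.7%, 35.0% and 33.2%, so the number of calls in this list stands near it. Their median log2 fold changes were 0.01, -0.01 and -0.06, beside 0.00, 0.01 and 0.01 over all genes. Under FPKM 1, 2 and 1 of the list rose and 5, 4 and 5 fell. Dusp1, a phosphatase of MAP kinases, fell by 0.68 ± 0.16, 0.58 ± 0.16 and 0.75 ± 0.16. Cdkn1a (p21) fell by 0.61, 0.66 and 0.60, Klf9 by 0.20, 0.21 and 0.19, and the metallothionein Mt1 by 0.20, 0.19 and 0.24. Fkbp5, a standard marker of glucocorticoid action, was the 1 gene that rose (0.13 ± 0.05 in Q140 against wild type, named after its value was seen).

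Of 19 hypoxia response genes, 5 rose and 2 fell in Q140 against wild type, 3 rose and 5 fell on the Ccdc82+/- background, and 3 rose and 6 fell on the Ccdc82-/- background (medians -0.01, -0.05 and -0.13). The share called among all genes was 34.7%, 35.0% and 33.2%. Under FPKM 7, 4 and 4 rose and 2, 3 and 4 fell. Kdm3a, a histone demethylase induced in hypoxia, fell by 0.43, 0.44 and 0.45, and Vegfa by 0.28, 0.25 and 0.30. Pdk1 rose by 0.26, 0.26 and 0.29, and Ldha by 0.15, 0.08 and 0.13. The Ldha call on the Ccdc82+/- background was lost with the plate column in the fit, and the Mt1 call there under FPKM.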

How the data were processed

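Per the submitters' processing notes, reads were handled with STAR 2.7.5c, SAMtools 1.10 and HTSeq 0.12.3 on GRCm38/mm10; settings, strand option and annotation release are not given in the sources used here. The authors deposited raw counts per gene and FPKM values for 47 libraries. Every FPKM equalled count divided by library total and gene length, within a relative deviation of 2.5e-13, so FPKM carries no TMM scaling. No 2 libraries were identical. Library totals ran from 41.3 M to 61.7 M counts, and members other than Trib3 and Chac1 had at least 418 counts in each library.

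From the counts, edgeR 4.0.16 in R 4.3.3 was run on the 19193 genes kept by its expression filter, with TMM scaling, 1 coefficient for each of the 6 groups and a sex term. Quasi-likelihood tests gave p-values adjusted over all tested genes by Benjamini-Hochberg, with 0.05 as the threshold. Interactions were contrasts of that fit, and the Q140 by sex test used a coefficient for each group and sex. CPM values use the TMM-scaled library size. The fit was tested on simulated data. Alternatives used DESeq2 1.42.0, limma 3.58.1 on log2(FPKM + 0.1) and log2(FPKM + 1), no filter, no sex term, the plate column, a replicate block, each sex alone, only the 2 groups compared, and each library left out. A fit without the 2 libraries highest in choroid plexus markers was chosen after seeing the data. Group steps and co-variation used permutation tests in scipy 1.17.1, co-variation with 100000 permutations.

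The 10 members and the gene lists were chosen with earlier results of these data known. List genes were named by p in the comparison of Q140 with wild type, the lowest first and up to 4 per list; others named for a role or a count were named after their values were seen. Of the listed names, Mars1, Gcn1, Dele1, Castor1 and Castor2 had no row under that name. Start windows came from RefSeq, and neighbouring genes from GENCODE M21, which held 48349 of the identifiers.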

Additional observations from a re-analysis of the deposited data

Results flagged for a closer look

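In 60 groups of libraries, 1 for each of the 10 genes in each of the 6 genotypes, 4 held a library set far apart from the rest by Dixon's criterion, where chance flags about 1 in 20 groups. Atf5 was 24.7 CPM in Q140 male 4, against 18.4 to 20.6 CPM in the other Q140 libraries. It was 22.7 CPM in wild type female 4, against 19.8 to 20.9 CPM in the others of that group. It was 17.7 CPM in Q140 Ccdc82+/- male 1, against 19.6 to 21.2 CPM in the others. Asns was 61.3 CPM in wild type male 1, against 67.5 to 70.5 CPM in the other wild type libraries, and this library also held the second highest level of choroid plexus markers, at 72.2 CPM. No explanation of these values was tested.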

How the results depend on the processing

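Genes past the threshold in Q140 against wild type were 4308 in females alone and 3922 in males alone, on the Ccdc82+/- background 3316 in females alone, and on the Ccdc82-/- background 3478 in females and 3800 in males alone. Members past it on the Ccdc82+/- background numbered 3 in females alone, in males alone and under log2(FPKM + 0.1) with no filter. Ccdc82+/- against wild type called 2 genes with the plate column, 0 in males alone, and 1 to 2 with 1 library left out (2 without Ccdc82+/- male 4, wild type female 3 or wild type male 4). Q140 Ccdc82+/- against Q140 called 0 in each sex alone. The interaction with Ccdc82+/- called 1 gene with DESeq2 and 1 with the plate column. The sex comparison without a filter called 1083 genes and 0 members, and Q140 by sex called 1 gene under log2(FPKM + 0.1), 2 under log2(FPKM + 1) and 1 under log2(FPKM + 0.1) with no filter.

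Small log2 fold changes turned sign, mostly under FPKM, whose median over all genes lies higher. Values under log2(FPKM + 0.1), log2(FPKM + 1) and no filter were 0.0417, 0.0407 and 0.0417 for Atf4 on the Ccdc82+/- background. For Atf5 they were 0.0196, 0.0183 and 0.0196 on the wild type and 0.0601, 0.0552 and 0.0601 on the Ccdc82+/- background. For Phgdh they were 0.0142, 0.0131 and 0.0142 on the wild type, 0.016, 0.0149 and 0.016 on the Ccdc82+/- and 0.0378, 0.0347 and 0.0378 on the Ccdc82-/- background. In males alone Atf4 was 0.0149 on the Ccdc82+/- background, Atf5 0.0341 on the wild type and Phgdh 0.00944 on the Ccdc82-/- background. With the plate column Atf5 was 0.0287 on the Ccdc82+/- background and Ddit4 0.000599 in Q140 against wild type. With 1 library left out Atf5 on the Ccdc82+/- background ranged from -0.0253 to 0.0138, above 0 without Ccdc82+/- female 1 or Q140 Ccdc82+/- male 1. None of these was past the threshold in the main fit. The cause of each change was not tested.

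Pairing of the libraries by replicate number was checked by correlation. Of 115 pairs of the same sex and number, 15 had a correlation over 0.1 (median -0.01). The median of pairs of the same sex and different number was 0. Of 47 libraries, 15 correlated best with their own number, a count that was not set against chance. With the replicate block 6647, 6739 and 6276 genes were called for Q140 on the wild type, Ccdc82+/- and Ccdc82-/- backgrounds and 1798 by sex, and no member's call changed. Without the 2 libraries highest in choroid plexus markers 5, 5 and 6 members were called on the 3 backgrounds, but Ddit3 in Q140 against wild type was not past the threshold (-0.12, adjusted p = 0.0914) and Atf4 was (-0.09, adjusted p = 0.0382). Depth limits Trib3 most, at 20 to 141 counts per library.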
